A study of Mus musculus with 9 samples.

Results

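The genes described here form the interleukin-6 (IL-6) signalling axis: the ligands Il6 and Lif, the receptor chains Il6ra, Il6st, Lifr and Osmr, the kinase Jak1, the transcription factor Stat3 and its feedback inhibitor Socs3. These 9 genes were listed by name, with earlier results of these data known, and are 9 of the 56923 gene identifiers in the count table. RNA was sequenced from kidneys of mice labelled WT, in 9 libraries. The 3 sham libraries came from mice that had surgery but no ischemia-reperfusion injury and whose treatment label is PBS. The 3 AKI_PBS libraries came from mice with acute kidney injury (AKI) given phosphate-buffered saline (PBS). The 3 AKI_PTPi_mEVs libraries came from mice with AKI given milk-derived extracellular vesicles that carried an siRNA against the tyrosine phosphatase PTP1B, the product of Ptpn1. There is no injured group with unloaded vesicles or a non-targeting siRNA, so the siRNA and the vesicle cannot be told apart. The labels name neither age, strain nor time after injury, and do not tie the libraries to animals. The p-values therefore describe the spread between libraries, which may be technical.

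IL-6 binds the IL-6 receptor alpha chain (Il6ra) and then the signalling chain gp130 (Il6st). Leukemia inhibitory factor (LIF) acts through the LIF receptor (Lifr) with gp130, and oncostatin M through the oncostatin M receptor (Osmr) with gp130. Bound receptors activate Janus kinases such as JAK1, which phosphorylate STAT3. Phosphorylated STAT3 enters the nucleus and switches on target genes, among them Socs3, whose protein binds gp130 and the kinases and damps the signal. In the kidney this axis is known for its part in the acute-phase response to injury. RNA levels give the abundance of transcripts and do not measure STAT3 phosphorylation.

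Promoter windows of RefSeq (GRCm38.p6, from 250 bases before to 50 after each annotated start) were found for 9 of the 9 genes, in 10 windows. They were searched on both strands for the STAT consensus TTCNNNGAA and the AP-1 consensus TGANTCA, where N is any base. Socs3 was the 1 member with a STAT match, TTCTTAGAA at -154 to -146 from the RefSeq start. The windows of 3 of the most changed genes are shown here because their windows hold a match, printed 5′ to 3′ on the gene's strand with the match in capitals. The windows lie at chr11:117969317-117969616 (minus strand) for Socs3, chr5:30012864-30013163 (plus strand) for Il6 and chr11:4257318-4257617 (plus strand) for Lif.
Socs3: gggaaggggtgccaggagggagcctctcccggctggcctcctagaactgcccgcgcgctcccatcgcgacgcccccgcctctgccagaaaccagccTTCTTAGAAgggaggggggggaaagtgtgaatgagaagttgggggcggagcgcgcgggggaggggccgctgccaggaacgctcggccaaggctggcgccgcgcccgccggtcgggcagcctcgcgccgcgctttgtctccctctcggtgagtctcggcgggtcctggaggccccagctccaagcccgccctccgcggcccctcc
Il6: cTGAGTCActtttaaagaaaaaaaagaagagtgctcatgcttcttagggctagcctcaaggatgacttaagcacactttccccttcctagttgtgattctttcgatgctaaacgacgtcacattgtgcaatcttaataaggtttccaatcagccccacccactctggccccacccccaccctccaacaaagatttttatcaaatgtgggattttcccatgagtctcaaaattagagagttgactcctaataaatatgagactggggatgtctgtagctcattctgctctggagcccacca
Lif: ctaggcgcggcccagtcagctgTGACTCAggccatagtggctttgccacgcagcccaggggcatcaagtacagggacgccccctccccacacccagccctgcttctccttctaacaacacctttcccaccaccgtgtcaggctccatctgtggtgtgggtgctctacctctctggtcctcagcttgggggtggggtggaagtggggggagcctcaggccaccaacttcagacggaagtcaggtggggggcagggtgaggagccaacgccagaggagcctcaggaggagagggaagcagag
Il6 held TGAGTCA at -249 to -243 and Lif held TGACTCA at -228 to -222, both AP-1 matches. Osmr held the AP-1 match TGATTCA at 4 to 10, downstream of its RefSeq start. The letters TTCNNNGAA occur in 8.30% and TGANTCA in 7.81% of all 32851 RefSeq windows, and a match describes the sequence, not a bound site.

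Of the 9 genes 8 passed the low-count filter and were tested with edgeR's quasi-likelihood test over 17036 genes, and a gene is called here at a Benjamini-Hochberg adjusted p under 0.05. In AKI_PBS against sham, 5 members were higher (Lif, Il6ra, Osmr, Stat3 and Socs3), where 27.8% of all tested genes were higher. Lifr was the 1 lower member (27.9% of all genes lower), and Il6st and Jak1 did not pass. Between the injured groups the same 6 genes passed in the opposite direction: 5 members were lower in AKI_PTPi_mEVs than in AKI_PBS (25.8% of all genes lower) and 1 was higher (25.4% higher). AKI_PTPi_mEVs against sham had 4 members higher, Lif, Osmr, Stat3 and Socs3 (7.43% of all genes higher), and 0 lower (5.79% lower). These comparisons share libraries, so a reversal between them is not a separate observation. Levels are given in CPM, which scale counts by the library's total over the tested genes and its TMM factor. A value after ± is the standard error of a log2 fold change, or an SD where marked. Each group has n = 3.

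**Figure D1:**
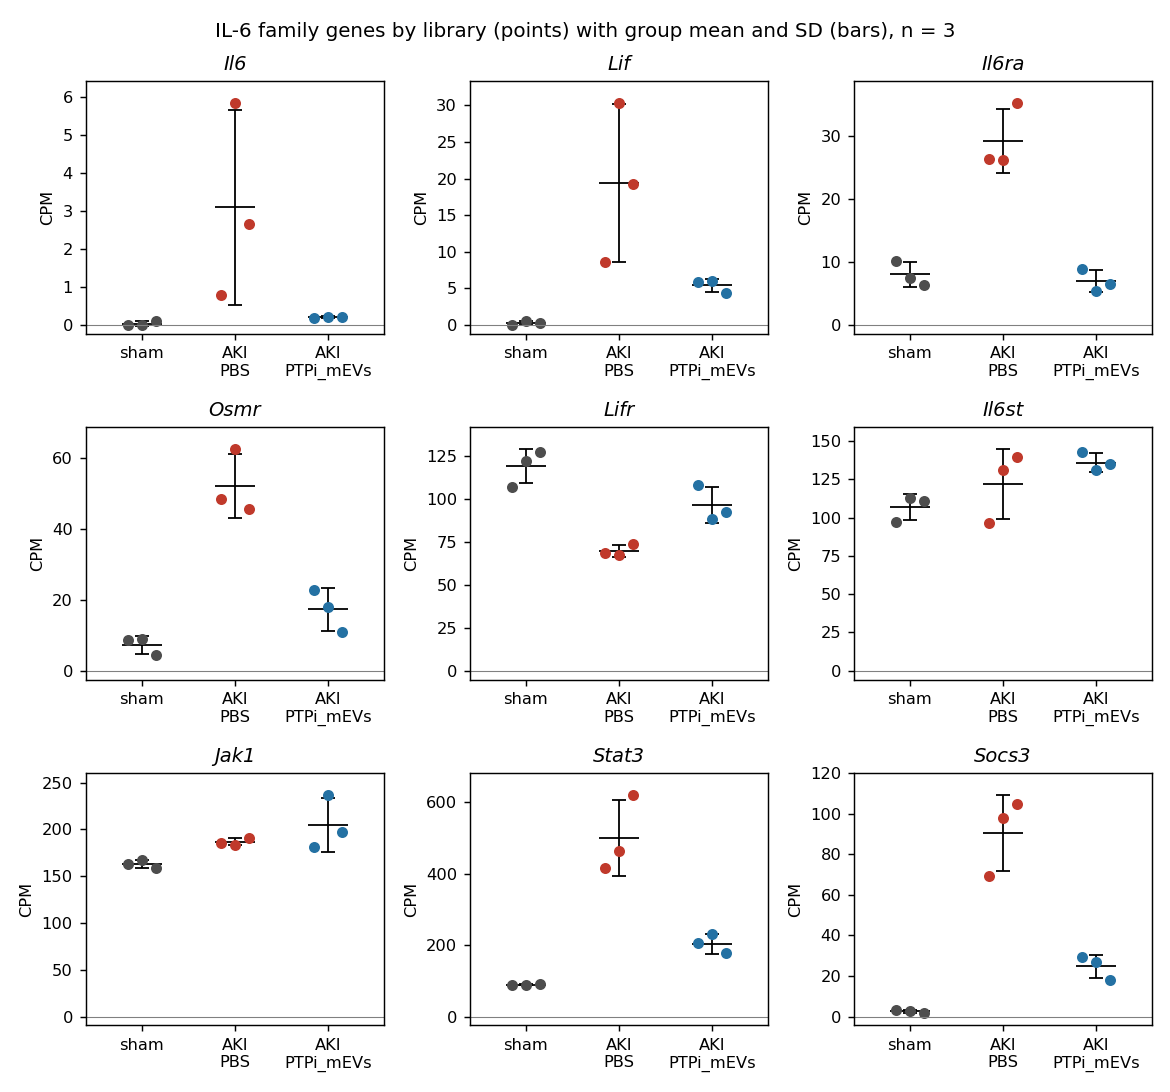
CPM of the 9 IL-6 family genes in each library (points), with group mean and SD (bars, n = 3), each panel on its own linear axis. Socs3 libraries of AKI_PBS sit between 69.5 and 105 CPM, those of AKI_PTPi_mEVs between 18.0 and 29.3 CPM and those of sham between 1.83 and 3.33 CPM, while the injured groups overlap for Il6st and Jak1.

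Il6, the founding cytokine of the family, was close to the detection limit. The sham libraries held 0, 0 and 1 counts, the AKI_PBS libraries 9, 68 and 30 counts, and the AKI_PTPi_mEVs libraries 2, 2 and 2 counts. Every AKI_PBS library lay above every other library, but they differed among themselves from 0.778 to 5.83 CPM. The mean was 3.09 ± 2.56 CPM (SD) in AKI_PBS, 0.207 ± 0.0205 CPM (SD) in AKI_PTPi_mEVs and 0.0339 ± 0.0587 CPM (SD) in sham. Pooled over libraries, Il6 was 15.1-fold lower in AKI_PTPi_mEVs than in AKI_PBS (95% exact interval for counting error 6.69 to 41.9). Against sham the AKI_PTPi_mEVs ratio was 6.34 with an interval of 0.769 to 292, so no difference was detectable at this depth. Il6 did not pass the filter. Two-sided exact permutation tests of its CPM gave p = 0.1 for each comparison, the smallest p that 3 against 3 libraries allow. Fitted without the filter, Il6 differed by 6.09 ± 0.74 in AKI_PBS against sham (edgeR adjusted p = 4.8e-15) and by -3.78 ± 0.56 in AKI_PTPi_mEVs against AKI_PBS (edgeR adjusted p = 3.48e-10). That fit took every gene with at least 1 count, 34890 genes, so its p-values cannot be ranked against those of the tested members. The AKI_PBS level depends on replicate 2: the difference in mean CPM from sham was 3.05, and 1.68 without that library, and from AKI_PTPi_mEVs it was -2.88, and -1.51 without it.

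Lif, a cytokine that signals through Lifr and gp130, had enough reads to be tested. It held 0, 6 and 2 counts in sham, 100, 353 and 218 in AKI_PBS, and 64, 55 and 40 in AKI_PTPi_mEVs. In CPM the AKI_PBS libraries held 8.64, 30.3 and 19.3 and the AKI_PTPi_mEVs libraries 5.87, 6.0 and 4.40, so the 3 groups did not overlap. The pooled count ratio of AKI_PBS to sham was 74.8 (95% exact interval for counting error 37.7 to 174). Lif could pass the filter only through the injured groups, which fixed its direction against sham. Its fitted log2 fold change was 6.16 ± 0.63 in AKI_PBS against sham (edgeR adjusted p = 7.17e-06), and 7.43 without sham replicate 2, which held 6 of the 8 sham counts. Between the injured groups Lif was lower by 3.56-fold in AKI_PTPi_mEVs (-1.83 ± 0.42, edgeR adjusted p = 0.00331). It was still above sham there, at 4.33 ± 0.68 (edgeR adjusted p = 0.00208), and at 5.61 without sham replicate 2.

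Among 10 other ligands of the family 4 were tested, with 2 higher and 1 lower in AKI_PBS against sham (27.8% and 27.9% of all genes) and a median log2 fold change of 1.71, where the median of all genes was 0.03. Il11 is 1 of the 2 higher genes, and the filter fixed its direction. Ebi3, the lower gene, reached the filter's minimum in no AKI_PBS library, so the counts and median rest partly on both. Clcf1, cardiotrophin-like cytokine factor 1, a ligand of the ciliary neurotrophic factor receptor complex, held 4.51, 3.63 and 5.08 CPM in sham, 60.4, 80.8 and 101 CPM in AKI_PBS, and 16.0, 21.0 and 11.8 CPM in AKI_PTPi_mEVs. These groups did not overlap, and AKI_PTPi_mEVs lay between the others. Clcf1 rose by 4.20 ± 0.26 in AKI_PBS (edgeR adjusted p = 2.46e-07), was lower by -2.32 ± 0.23 in AKI_PTPi_mEVs than in AKI_PBS (edgeR adjusted p = 8.36e-06) and remained above sham by 1.88 ± 0.26 (edgeR adjusted p = 0.000893). Il11, interleukin-11, had 7, 7 and 0 counts in sham, 33, 69 and 18 in AKI_PBS, and 15, 8 and 4 in AKI_PTPi_mEVs. It could pass the filter only through AKI_PBS, and was higher there than in sham by 2.90 ± 0.68 (edgeR adjusted p = 0.00294), and by 2.27 without AKI_PBS replicate 2. Its difference between the injured groups (-1.91 ± 0.61, edgeR adjusted p = 0.0201) was lost without AKI_PBS replicate 2 (-1.27), AKI_PTPi_mEVs replicate 2 (-1.86) or AKI_PTPi_mEVs replicate 3 (-1.58).

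The other ligands were near the limit of detection. Ebi3, a subunit of interleukin-27, fell by 1.57 ± 0.56 on the log2 scale in AKI_PBS against sham (edgeR adjusted p = 0.03). That call was lost with DESeq2 (-1.60) and without sham replicate 1 (-1.61) or AKI_PBS replicate 3 (-1.12). Ebi3 held 0.605, 0.515 and 0.0884 CPM in AKI_PBS, all under the filter's minimum of 0.921 CPM, so the filter favoured this direction. Ctf1, cardiotrophin 1, did not pass (0.52 ± 0.46, edgeR adjusted p = 0.35). Osm, the ligand of Osmr, had 5 counts in sham, 15 in AKI_PBS and 4 in AKI_PTPi_mEVs over 3 libraries each, too few for the test. Cntf, ciliary neurotrophic factor, had 10, 23 and 10 counts in the same order.

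Among the receptor chains Il6ra and Osmr rose and Lifr fell in AKI_PBS against sham, and the shared chain Il6st did not pass. Il6ra, which binds IL-6, held 10.2, 7.53 and 6.40 CPM in sham, 26.4, 26.3 and 35.3 CPM in AKI_PBS, and 8.90, 5.46 and 6.49 CPM in AKI_PTPi_mEVs. The AKI_PBS libraries stood above all others, and the sham and AKI_PTPi_mEVs libraries overlapped. Il6ra was 3.64-fold higher in AKI_PBS than in sham (1.86 ± 0.23, edgeR adjusted p = 2.94e-05) and 4.19-fold lower in AKI_PTPi_mEVs than in AKI_PBS (-2.07 ± 0.24, edgeR adjusted p = 2.15e-05). Between AKI_PTPi_mEVs and sham the log2 difference was -0.20 with a 95% interval of -0.73 to 0.32 (edgeR adjusted p = 0.633).

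Osmr, the receptor chain for oncostatin M, held 8.82, 8.84 and 4.37 CPM in sham, 48.5, 62.6 and 45.6 CPM in AKI_PBS, and 22.9, 18.1 and 10.8 CPM in AKI_PTPi_mEVs. The 3 groups did not overlap. Osmr rose 7.09-fold in AKI_PBS against sham (2.83 ± 0.30, edgeR adjusted p = 8.06e-06) and was 3.01-fold lower in AKI_PTPi_mEVs than in AKI_PBS (-1.59 ± 0.28, edgeR adjusted p = 0.000486). The AKI_PTPi_mEVs level was above sham by 1.23 ± 0.30 (edgeR adjusted p = 0.0173). That call was lost without sham replicate 3 (0.98, adjusted p = 0.0533), AKI_PTPi_mEVs replicate 1 (0.98, adjusted p = 0.0676) or AKI_PTPi_mEVs replicate 2 (1.19, adjusted p = 0.0657), in edgeR fits.

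Lifr, the LIF receptor chain, went the other way. It held 107, 122 and 127 CPM in sham, 68.7, 67.1 and 73.6 CPM in AKI_PBS, and 108, 88.1 and 92.6 CPM in AKI_PTPi_mEVs. AKI_PBS lay below both other groups in every library, while AKI_PTPi_mEVs replicate 1 reached into the sham range. Lifr fell by 0.77 ± 0.13 on the log2 scale in AKI_PBS against sham (edgeR adjusted p = 0.000289) and was higher by 0.46 ± 0.13 in AKI_PTPi_mEVs than in AKI_PBS (edgeR adjusted p = 0.00945). From sham, AKI_PTPi_mEVs was at -0.30 (95% interval -0.58 to -0.03, edgeR adjusted p = 0.138), which did not pass.

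Il6st, the gp130 chain that these receptors share, held 97.1, 113 and 111 CPM in sham, 96.6, 131 and 140 CPM in AKI_PBS, and 143, 131 and 135 CPM in AKI_PTPi_mEVs. All 3 AKI_PTPi_mEVs libraries lay above the sham libraries, and the AKI_PBS libraries spanned both groups. No comparison passed. The log2 differences were 0.19 in AKI_PBS against sham (95% interval -0.13 to 0.51, edgeR adjusted p = 0.284) and 0.15 between the injured groups (-0.17 to 0.47, edgeR adjusted p = 0.405). For AKI_PTPi_mEVs against sham the difference was 0.35 (0.03 to 0.67, edgeR adjusted p = 0.141).

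Counts of receptor chains were also compared within each library, which needs no scaling between libraries. Il6ra, Osmr and Lifr each act with gp130 (Il6st), so the ratio of Osmr to Lifr does not describe a receptor pair. For every 100 Lifr counts there were 8.25, 7.25 and 3.49 Osmr counts in sham, 70.6, 93.4 and 62.0 in AKI_PBS, and 21.3, 20.6 and 11.7 in AKI_PTPi_mEVs. The log2 ratio of Osmr to Lifr was higher by 3.64 in AKI_PBS than in sham and lower by -2.11 in AKI_PTPi_mEVs than in AKI_PBS, with no overlap of groups. For every 100 Il6st counts there were 10.5, 6.68 and 5.82 Il6ra counts in sham, 27.3, 20.2 and 25.2 in AKI_PBS, and 6.26, 4.21 and 4.85 in AKI_PTPi_mEVs. This log2 ratio differed by 1.69 in AKI_PBS against sham and by -2.25 between the injured groups. The 4 differences each gave p = 0.1 by a two-sided exact permutation test, the smallest possible. For Osmr to Lifr this outcome was fixed, because their CPM went opposite ways without overlap in both comparisons. These ratios therefore add no separate evidence. The ratio of Osmr to Lifr in AKI_PTPi_mEVs stayed 1.54 above sham (exact permutation p = 0.1), whereas Il6ra to Il6st differed by -0.56 with overlapping groups (exact permutation p = 0.2).

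**Figure D2:**
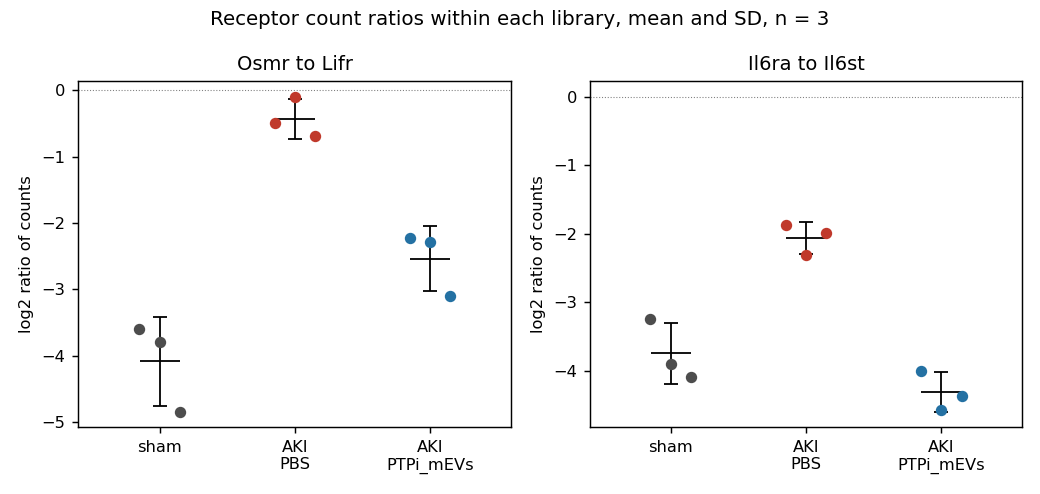
Log2 ratio of counts of Osmr to Lifr (left) and of Il6ra to Il6st (right) in each library (points), with group mean and SD (bars, n = 3). In AKI_PBS both ratios lie above those of all other libraries, and in AKI_PTPi_mEVs the Osmr to Lifr ratio lies between -3.10 and -2.23, above the sham range of -4.84 to -3.60.

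Of 4 other receptor genes of the family 3 were tested. Il11ra1, the binding chain for interleukin-11, had the signs of Lifr: it was at -0.88 ± 0.14 in AKI_PBS against sham (edgeR adjusted p = 0.000177) and at 0.70 ± 0.14 in AKI_PTPi_mEVs against AKI_PBS (edgeR adjusted p = 0.0011). Cntfr, the ciliary neurotrophic factor receptor, did not pass in AKI_PBS against sham (-0.85 ± 0.37, edgeR adjusted p = 0.065), but did without AKI_PBS replicate 3 (-1.19) and with a replicate block (-0.90). Il27ra did not pass either (-1.03 ± 0.50, edgeR adjusted p = 0.0984).

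Jak1, the Janus kinase bound to gp130, held 163, 167 and 159 CPM in sham, 185, 183 and 191 CPM in AKI_PBS, and 181, 237 and 197 CPM in AKI_PTPi_mEVs. Both injured groups lay above sham in every library, by small amounts that did not pass the test. The log2 differences were 0.20 in AKI_PBS against sham (95% interval -0.08 to 0.48, edgeR adjusted p = 0.214), 0.33 in AKI_PTPi_mEVs against sham (0.05 to 0.61, edgeR adjusted p = 0.112) and 0.13 between the injured groups (-0.15 to 0.41, edgeR adjusted p = 0.41).

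Stat3, the transcription factor of the axis, held 88.7, 89.0 and 91.4 CPM in sham, 416, 463 and 621 CPM in AKI_PBS, and 205, 232 and 177 CPM in AKI_PTPi_mEVs. The 3 groups were separate, with AKI_PTPi_mEVs between the others. Stat3 rose 5.57-fold in AKI_PBS against sham (2.48 ± 0.17, edgeR adjusted p = 4.12e-07), and AKI_PTPi_mEVs remained above sham by 2.28-fold (1.19 ± 0.17, edgeR adjusted p = 0.00094). Between the injured groups it differed by -1.29 ± 0.16 (edgeR adjusted p = 4.67e-05).

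Socs3, the feedback inhibitor that STAT3 induces, held 3.33, 2.70 and 1.83 CPM in sham, 69.5, 97.8 and 105 CPM in AKI_PBS, and 29.3, 26.7 and 18.0 CPM in AKI_PTPi_mEVs. Its groups were separate in the same order as those of Stat3. Socs3 rose 34.4-fold in AKI_PBS against sham (5.10 ± 0.27, edgeR adjusted p = 1.66e-07) and was 3.67-fold lower in AKI_PTPi_mEVs than in AKI_PBS (-1.87 ± 0.22, edgeR adjusted p = 2.38e-05). It remained 9.38-fold above sham in AKI_PTPi_mEVs (3.23 ± 0.27, edgeR adjusted p = 4.33e-05). The Socs3 window printed above is the 1 member window with a STAT match.

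**Figure D3:**
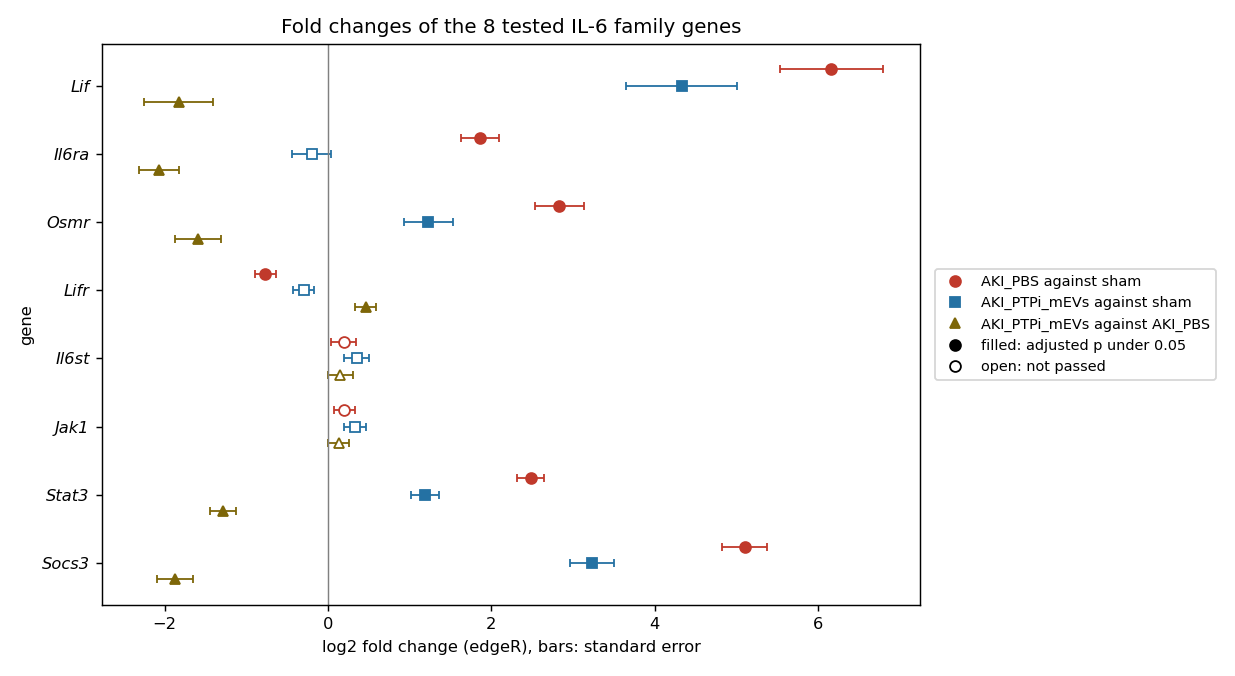
Log2 fold change (points) and standard error (bars) of the 8 tested IL-6 family genes in the 3 comparisons, from edgeR, filled where the adjusted p was under 0.05. Lif, Osmr, Stat3 and Socs3 are filled in all 3 comparisons, Il6ra and Lifr in those with AKI_PBS, and Il6st and Jak1 in none.

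Over the 8 tested members the median log2 fold change was 2.17 in AKI_PBS against sham, -1.44 in AKI_PTPi_mEVs against AKI_PBS and 0.77 in AKI_PTPi_mEVs against sham. All tested genes had medians of 0.03, -0.03 and -0.01. The CPM of the groups did not overlap for 7, 6 and 6 of the 8 members in this order, where 62.1%, 57.9% and 39.2% of all tested genes did not overlap. The members' median against sham rests partly on Lif, whose direction the filter fixed.

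To compare levels between genes, CPM was divided by the exon length in kilobases. In sham the order was Jak1 at 22.5, Lifr at 11, Il6st at 9.65 and Stat3 at 9.42 CPM per kb, with Il6ra at 0.931, Socs3 at 0.906, Osmr at 0.606, Lif at 0.0583 and Il6 at 0.0139 CPM per kb. The neighbours Il6st and Stat3, and Il6ra and Socs3, did not differ beyond their SDs of 0.158 to 0.787 CPM per kb. In AKI_PBS the order changed: Stat3 led at 52.5 ± 11.3 CPM per kb (SD), followed by Socs3 at 31.4 ± 6.45 (SD) and Jak1 at 25.8 ± 0.577 (SD). Below them lay Il6st at 11, Lifr at 6.48, Lif at 4.46, Osmr at 4.31, Il6ra at 3.39 and Il6 at 1.27 CPM per kb. Lif, with an SD of 2.49 CPM per kb, did not differ from Lifr, Osmr or Il6ra beyond that spread, nor Socs3 from Jak1. In AKI_PTPi_mEVs Jak1 led again at 28.3 CPM per kb, ahead of Stat3 at 21.5, Il6st at 12.3, Lifr at 8.93 and Socs3 at 8.54. Lifr and Socs3 did not differ there beyond their SDs of 0.974 and 2.04 CPM per kb, and Osmr at 1.43, Lif at 1.25, Il6ra at 0.804 and Il6 at 0.0854 CPM per kb came last. Of these, Osmr and Lif did not differ beyond their SDs of 0.506 and 0.205 CPM per kb.

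Of 8 other Janus kinases and STATs tested, 1 was higher and 3 were lower in AKI_PBS against sham (median log2 fold change -0.16), where 27.8% of all genes were higher and 27.9% lower. In AKI_PTPi_mEVs against AKI_PBS 4 were higher and 1 lower (median 0.34), where 25.4% and 25.8% of all genes were. With 8 genes these counts are not read as a difference from all genes. Jak2, a kinase that also binds gp130, was the higher one, by 0.72 ± 0.15 in AKI_PBS (edgeR adjusted p = 0.00147), and was lower by -0.61 ± 0.15 in AKI_PTPi_mEVs than in AKI_PBS (edgeR adjusted p = 0.00522). Stat5a was at -0.55 ± 0.14 in AKI_PBS against sham (edgeR adjusted p = 0.00572). Tyk2 was at -0.46 ± 0.18 (edgeR adjusted p = 0.0413), a call lost with library totals (-0.37), with only the groups compared (-0.46), with the replicate block (-0.47), and without any 1 sham library (-0.52 to -0.39) or without AKI_PBS replicate 2 (-0.52) or 3 (-0.29). In AKI_PTPi_mEVs against sham 1 of the 8 was higher, Jak3 (0.99 ± 0.16, edgeR adjusted p = 0.00256), named after its value was seen.

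Feedback inhibitors, phosphatases and receptor-shedding proteases were followed as 17 further genes, all tested. In AKI_PBS against sham 7 were higher and 2 lower (median 0.25), where 27.8% and 27.9% of all genes were and their median was 0.03. In AKI_PTPi_mEVs against AKI_PBS 2 were higher and 8 lower (median -0.50), where 25.4% and 25.8% of all genes were and their median was -0.03. Against sham, AKI_PTPi_mEVs had 0 higher and 1 lower (7.43% and 5.79% of all genes). Ptpn1, the target of the siRNA, held 80.9, 90.5 and 98.8 CPM in sham, 123, 148 and 170 CPM in AKI_PBS, and 106, 106 and 94.0 CPM in AKI_PTPi_mEVs. Ptpn1 was higher in AKI_PBS than in sham (0.71 ± 0.15, edgeR adjusted p = 0.0012), and lower in every AKI_PTPi_mEVs library than in any AKI_PBS library (-0.53 ± 0.15, edgeR adjusted p = 0.00862). The difference of AKI_PTPi_mEVs from sham, 0.18 ± 0.15, did not pass (edgeR adjusted p = 0.455). Ptpn2, a phosphatase of JAK1 and STAT3, rose by 0.92 ± 0.12 in AKI_PBS (edgeR adjusted p = 5e-05) and Ptpn11, the gp130-bound phosphatase SHP2, by 0.85 ± 0.13 (edgeR adjusted p = 9.84e-05). Both were lower in AKI_PTPi_mEVs than in AKI_PBS, by -0.68 ± 0.12 (edgeR adjusted p = 0.000602) and -0.71 ± 0.12 (edgeR adjusted p = 0.00048). Ptpn6, the phosphatase SHP1 of blood cells and epithelia, was at -1.41 ± 0.18 in AKI_PBS against sham (edgeR adjusted p = 2.98e-05) and at 1.48 ± 0.18 between the injured groups (edgeR adjusted p = 3.06e-05). Adam17, a protease that sheds the IL-6 receptor, was at -0.46 ± 0.13 in AKI_PBS against sham (edgeR adjusted p = 0.00928) and at 0.80 ± 0.13 between the injured groups (edgeR adjusted p = 0.000305).

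Genes known as STAT3 targets in other settings were higher in 22 of 27 and lower in 2 in AKI_PBS against sham (median 1.86), where 27.8% of all genes were higher and 27.9% lower. Against AKI_PBS, AKI_PTPi_mEVs had 14 lower and 1 higher (median -1.10), where 25.8% and 25.4% of all genes were. Against sham it had 14 higher and 0 lower (median 0.68), where 7.43% and 5.79% of all genes were. Of these genes Cebpb and Batf could pass the filter only through AKI_PBS, and Fgb, Timp1 and Il1rn only through the injured groups, so the counts and medians rest partly on directions the filter fixed. Many of the 27 also respond to other factors. Tnfrsf12a, the receptor of the cytokine TWEAK, held 22.7, 29.0 and 31.9 CPM in sham, 396, 416 and 511 CPM in AKI_PBS, and 100, 178 and 111 CPM in AKI_PTPi_mEVs. Its 3 groups were separate, with log2 fold changes of 3.98 ± 0.23 in AKI_PBS against sham (edgeR adjusted p = 2.34e-07) and -1.77 ± 0.21 between the injured groups (edgeR adjusted p = 3.18e-05). Lcn2, which encodes the iron-trafficking injury marker NGAL, was at 7.60 ± 0.42 in AKI_PBS against sham (edgeR adjusted p = 2.34e-07). Between the injured groups it was at -2.24 ± 0.30, lower in AKI_PTPi_mEVs (edgeR adjusted p = 9.89e-05), and AKI_PTPi_mEVs was above sham by 5.36 ± 0.40 (edgeR adjusted p = 4.33e-05). Mcl1, a survival factor of the BCL2 family, was at 1.86 ± 0.15 in AKI_PBS against sham (edgeR adjusted p = 9.57e-07). It was at 0.68 ± 0.14 in AKI_PTPi_mEVs against sham (edgeR adjusted p = 0.00934), a call lost without sham replicate 2 (0.64).

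Cebpd, a transcription factor of the acute-phase response, held 0.98, 1.21 and 2.03 CPM in sham, 27.5, 73.1 and 37.9 CPM in AKI_PBS, and 2.39, 1.96 and 2.31 CPM in AKI_PTPi_mEVs. AKI_PBS stood apart in every library, and the other groups overlapped. Cebpd was at 5.03 ± 0.39 in AKI_PBS against sham (edgeR adjusted p = 9.77e-07), at -4.37 ± 0.37 between the injured groups (edgeR adjusted p = 2.83e-06) and at 0.66 ± 0.46 in AKI_PTPi_mEVs against sham, which did not pass (edgeR adjusted p = 0.376). Ccnd1, the cyclin D1 gene of cell cycle entry, went against the list, at -1.17 ± 0.16 in AKI_PBS against sham (edgeR adjusted p = 5.57e-05) and 1.76 ± 0.16 between the injured groups (edgeR adjusted p = 4.7e-06). It was above sham in AKI_PTPi_mEVs by 0.58 ± 0.16 (edgeR adjusted p = 0.0287), a call lost without any 1 sham library (0.51 to 0.63) or without AKI_PTPi_mEVs replicate 2 (0.58) or 3 (0.47).

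Of 3 targets named after their values were seen, Bcl3 was at 1.22 ± 0.21 in AKI_PBS against sham and 0.03 ± 0.20 between the injured groups. Icam1 was at 1.22 ± 0.20 and 0.28 ± 0.19. Pim1, a kinase gene, was at 2.43 ± 0.35 and -2.47 ± 0.36 in the same comparisons. The second values of Bcl3 and Icam1 did not pass (edgeR adjusted p = 0.916 and 0.237), and that of Pim1 did (edgeR adjusted p = 0.000121). Picked by their values, these 3 genes describe themselves and not the list. RefSeq windows were found for 21 of the 27 targets, and TTCNNNGAA occurred in those of 3 (Fga, Fgb and Icam1). Over all 27025 genes with a window, 9.55% held it.

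**Figure D4:**
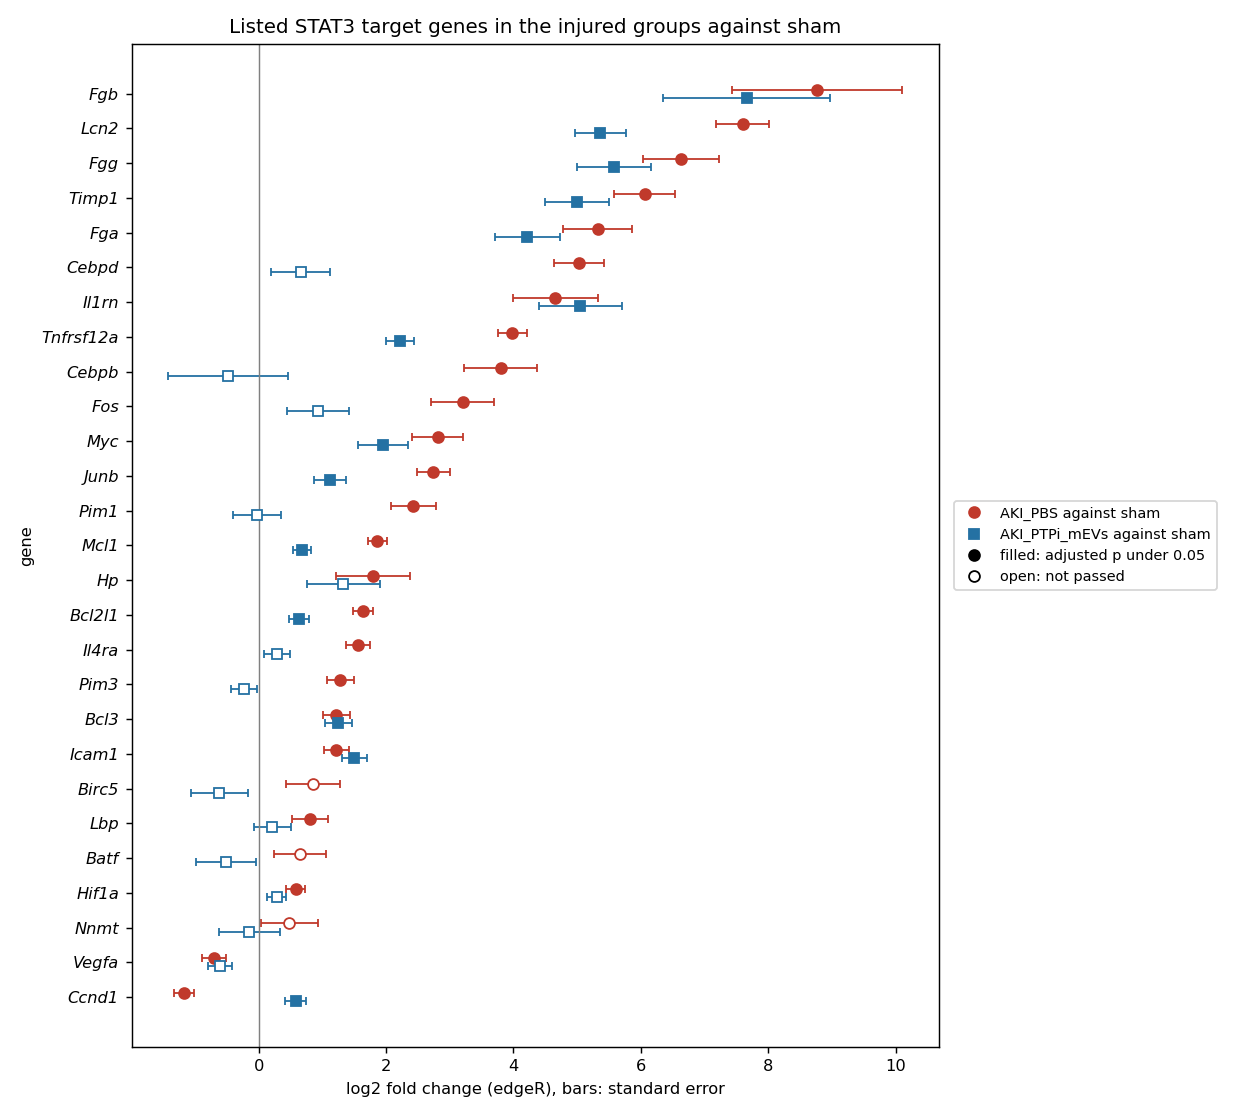
Log2 fold change (points) and standard error (bars) of the 27 STAT3 target genes, from edgeR, filled where the adjusted p was under 0.05. Among genes picked by their values, Cebpd, Pim1 and Ccnd1 lie near sham or beyond it in AKI_PTPi_mEVs, while Lcn2, Icam1 and Bcl3 stay above sham.

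For Socs3 and Osmr the genes most alike across the 9 libraries were looked up by Pearson's r of log2 CPM among 11315 genes, as a description. Socs3 was most like Krt20 (0.988), Prkab1 (0.988), Litaf (0.987), Ipo5 (0.987) and Plaur (0.986), and 182 genes had an r above 0.95. Among the genes most like Osmr were Ptpn9 (0.989), Plaur (0.978) and Tmbim1 (0.978), with 118 genes above 0.95. The libraries share 3 group levels, so any gene with the same order of groups has a high r.

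In bulk RNA, a change in how many cells of a type are present and a change in RNA per cell cannot be told apart, and cell type markers moved beside the members. The summed level of 10 neutrophil markers was 0.558 to 0.980 CPM in sham, with S100a8, Retnlg, Ly6g, Mmp8, Mpo and Elane at 0. It was 23.9 to 41.5 CPM in AKI_PBS, with all 10 detected, and 2.11 to 2.53 CPM in AKI_PTPi_mEVs, with Ly6g and Elane at 0. By CPM this sum had the same order of groups as Il6, Lif, Osmr, Stat3 and Socs3. In AKI_PTPi_mEVs against sham 0 of 7 tested neutrophil markers were higher and 0 lower (7.43% and 5.79% of all genes). Their median log2 fold change was 2.29 there, where that of all genes was -0.01, and the 2 ranges of the sum did not overlap. At such low counts the lack of calls does not show equal levels. For Il6 no difference was detectable there either. The 11 macrophage and monocyte markers summed to 101 to 132 CPM in sham, 76.8 to 120 CPM in AKI_PBS and 73.0 to 92.3 CPM in AKI_PTPi_mEVs, all detected in each group. That sum holds markers that went opposite ways. Of 10 tested, 2 were higher and 3 lower in AKI_PBS against sham (27.8% and 27.9% of all genes). In AKI_PTPi_mEVs against AKI_PBS 3 were higher and 2 lower (25.4% and 25.8% of all genes). With 10 genes these counts are not read as a difference from all genes. The 10 proximal tubule markers, all detected in each group, summed to 13474 to 16759 CPM in sham, 5334 to 8479 CPM in AKI_PBS and 9514 to 13561 CPM in AKI_PTPi_mEVs, the order of Lifr. The 8 loop of Henle and distal nephron markers, at 4586 to 5348, 2299 to 3952 and 3965 to 4489 CPM, and the 8 lymphocyte markers, at 5.49 to 7.25, 1.29 to 1.77 and 2.51 to 4.13 CPM in sham, AKI_PBS and AKI_PTPi_mEVs, were also lowest in AKI_PBS. The 5 podocyte markers summed to 202 to 258, 305 to 418 and 221 to 227 CPM in this order, and were highest in AKI_PBS, as was Il6ra. Every marker of these 3 lists was detected in each group. The 8 endothelial markers, all detected, ranged over 329 to 535, 329 to 519 and 287 to 383 CPM, and the 8 fibroblast and pericyte markers, also all detected, over 321 to 420, 321 to 405 and 220 to 496 CPM. Other sums also hold markers that went opposite ways. In AKI_PTPi_mEVs against AKI_PBS, 7 of 10 proximal tubule markers were higher and 1 lower (25.4% and 25.8% of all genes). Of 8 loop of Henle and distal nephron markers 4 were higher and 1 lower there. In AKI_PBS against sham, 2 of 8 endothelial markers were higher and 3 lower (27.8% and 27.9% of all genes). The part of any of these cells in the members' values was not tested.

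Library totals lay between 9467851 and 11389479 counts. AKI_PBS replicate 3 stood apart from its group on the third principal component (6.27% of the variance), at -44.1 against 28.3 and 20.6. Leaving it out changed no call of a tested member. No source used here gives the counting's strand setting, and reads of overlapping antisense genes cannot be told apart from those of the members.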

How the data were processed

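RNA sequencing of 9 mouse kidney libraries gave whole-number counts per gene, deposited as 1 table. Per the submitters' processing notes it was made with STAR and HTSeq (no versions given) on GRCh38.p14, a human build, although the identifiers are mouse. Samples were grouped by their labels, and the unmapped columns of per-sample values number 0. Symbols matched 52073 of the 56923 identifiers.

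Counts were analysed with edgeR 4.0.16 in R 4.3.3: filterByExpr by group (minimum count 10), TMM factors, and a robust quasi-likelihood fit over the 9 libraries (residual degrees of freedom: 6). Standard errors are the log2 fold change divided by the root of F. Il6 was given by counts with exact binomial intervals (95%), which cover counting error only, since reads carried no molecular identifiers. Receptor ratios used 0.5 added to counts and exact permutation tests. Exon lengths were those of GENCODE M21. The fit was tested on simulated data. Figures were drawn with matplotlib 3.10.9 (Python 3.11.15).

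Named were the 9 members and, from each other pathway list, up to 4 genes with the smallest adjusted p in AKI_PBS against sham and up to 2 in AKI_PTPi_mEVs against AKI_PBS, Ptpn1, untested genes with at least 20 counts in a group, and the 5 genes most like Socs3 and Osmr (mean log2 CPM of at least 2). Osm is named besides as the ligand of Osmr. Some genes that this rule names are not reported here. The members and lists were chosen with earlier results of these data known. Alternatives were DESeq2 1.42.0, library totals or relative log expression factors for scaling, no filter and a stricter one (1 CPM in 3 libraries), only the groups compared, a replicate block, and each library left out.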

Additional observations from a re-analysis of the deposited data

How the results depend on the processing

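The 24 member fits were repeated under 16 alternatives each, and 381 of the 384 fits kept their side of the threshold. The 3 that changed were all Osmr in AKI_PTPi_mEVs against sham, with a library left out. No call of a member reversed its direction. A difference that did not pass could change sign: that of Il6ra in AKI_PTPi_mEVs against sham, -0.20, ranged from -0.42 to 0.01. The number of members called higher in AKI_PBS against sham was 5, and 6 without a low-count filter, where Il6 passed, and 5 to 6 with a library left out. The number lower in AKI_PTPi_mEVs than in AKI_PBS was likewise 5, 6 and 5 to 6, and the number higher in AKI_PTPi_mEVs than in sham 4, and 3 to 4 with a library left out. Over all genes, 1538 were lower in AKI_PTPi_mEVs than in sham with only the groups compared, against 986. With a library left out, 488 to 1917 were higher, against 1266, and 390 to 1478 lower: both were lowest without AKI_PTPi_mEVs replicate 2 and highest without AKI_PBS replicate 3, and both also moved by over 1.5 times without sham replicate 1 (647 and 537), sham replicate 2 (520 and 418) or AKI_PTPi_mEVs replicate 1 (833 and 654). The cause was not tested. With library totals, 5250 genes were higher and 4301 lower in AKI_PBS against sham, and 3757 and 5048 between the injured groups, with no member call changed. The libraries share replicate numbers, but same-numbered libraries did not deviate together (correlations -0.187 to 0.111). With the replicate block the members called were 5 higher and 1 lower, 1 higher and 5 lower, and 4 higher and 0 lower, as without it. Over all genes it called 4543 higher and 4670 lower in AKI_PBS against sham, 4276 and 4215 between the injured groups, and 1121 and 929 in AKI_PTPi_mEVs against sham. The log2 ratio of Osmr to Lifr differed by 3.26 to 3.88, -2.26 to -1.83 and 1.16 to 1.82 with a library left out, and that of Il6ra to Il6st by 1.52 to 1.95, -2.41 to -2.12 and -0.74 to -0.31, in the same order of comparisons. Depth limits Il6 and the scarce ligands: with 1 to 6 counts over 3 libraries, a difference between AKI_PTPi_mEVs and sham was not detectable.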
